A study of Homo sapiens with 2 samples.

Results

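N6-methyladenosine (m6A), a methyl mark on adenosines inside messenger RNA, was mapped in GM12878, an established lymphoblastoid line of human B cells carrying Epstein-Barr virus. RNA was broken into fragments, and fragments bound by an m6A antibody (the immunoprecipitate, IP) were sequenced beside unselected fragments (the input), with 1 library of each. Both groups were the same untreated line grown in RPMI with serum, so they differ only in the antibody step. The results below concern internal exons of 11 to 20 windows, which span about 501 to 1000 nt, in transcripts with a mean scaled input coverage of 1 or more. They were found by listing, for each gene name, the transcript with most windows, and keeping exons that are neither the first nor the last and hold 11 to 20 windows. This gave 1051 exons with 15005 windows in 934 genes, out of 1983959 windows in 47352 genes and 705372 windows in the 10767 genes that pass the input minimum.

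m6A is placed on nascent messenger RNA by a complex around METTL3 and METTL14 and is read by YTH domain proteins, which steer RNA decay, export and splicing. The mark is known to gather around stop codons, in 3′ untranslated regions and in unusually long internal exons, while exons of ordinary length carry little of it. Exon junction complexes, left by the spliceosome beside each junction, are known to limit methylation near splice sites.

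The input held approximately 49.8 M reads on the listed transcripts and the IP 56.4 M. All 10 B cell markers examined passed the input minimum, with CD74, a chaperone of class II antigen presentation, at 775. The source field of the labels reads mouse embryonic stem cells, against the organism and cell line fields, and 0 of 10 pluripotency markers passed and the highest, SOX2, stood at 0.153. Of 10 T cell markers 3 passed (TCF7, LCK and CD3E, the highest at 14.4) and of 10 myeloid markers 1 (ITGAM at 1.12). Each group has a single library, so no difference between IP and input has a replicate check, no p-value is given, and all intervals are 95% intervals for counting error only. Overlapping windows share reads, which makes these intervals too narrow.

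Enrichment was read from a window score, the log2 ratio of IP to input after each is divided by its median over the gene, with 1 added to every value. A score of 2 is 4-fold and is called enriched here. Of the 15005 windows in long internal exons, 3905 (26.0%, 25.3 to 26.7) were enriched, against 5.75% of all windows in genes that pass the input minimum. A score of 3 or more was reached by 1721 windows (11.5%, background 2.38%) and of 4 or more by 551 (3.67%, background 0.792%). The median window of these exons scored 0.97, and the middle 50% of windows lay between 0.15 and 2.06, where the median of all windows was 0.06. Without the division by gene medians 4368 windows (29.1%) had a log2 ratio of 2 or more, against 7.72% of all windows. Median scaled coverage was 3.56 in the input and 11.2 in the IP, against 2.33 and 2.34 over all windows, so that these exons were also somewhat better covered in the input.

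Many long internal exons held an enriched region, a run of 2 or more neighbouring enriched windows. A region was found in 593 of 1051 exons (56.4%, 53.4 to 59.4) from 563 genes, against 5.21% of exons of every length and place and 32.7% of all exons of 11 to 20 windows, terminal exons included. Runs of at least 4 windows were found in 440 exons, regions at a threshold of 3 in 367, and regions with 5 added in place of 1 in 453. No share over all exons is given for these other rules. The usual pattern was a single region, in 494 exons, while 96 exons had 2 regions and 3 had 3. The longest run in an exon had a median of 5 windows and reached 18. At the top window of these 593 exons the IP had a median scaled coverage of 70.5 and the input of 4.38. At least 50% of the windows were enriched in 241 exons and all of them in 1, exon 3 of KLF6, a zinc finger transcription factor. In contrast 177 exons (16.8%) had no window at 1 or more. Of all windows in long internal exons 49.3% reached 1, against 13.4% of all windows in genes that pass the input minimum. The 241 and the 177 exons have no share over all exons beside them.

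Low scores were rare, with 10 windows in 5 exons at -2 or less (0.0666%, background 0.329%), of which 4 lay in ALG11, a mannosyltransferase of glycan synthesis, and 3 in CLP1, an RNA kinase of transfer RNA splicing and 3′ end formation. Input in these 7 windows was between 0.423 and 4.26. Without centring no window of the long internal exons reached -2, the lowest standing at -1.70. Both exons stand in short transcripts, and the exon of ALG11 that holds these windows also held windows with high IP coverage (median 8.05 over the exon).

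The share of enriched windows changed with exon length in the class and around its limits. Exons of 11 windows had 21.3% enriched windows (19.6 to 23.2), those of 14 windows 25.1%, those of 17 windows 25.1% and those of 20 windows 35.0% (31.7 to 38.5). Grouped, exons of 18 to 20 windows stood at 32.6% and exons of 11 to 13 windows at 23.4%, a difference of 9.28 percentage points (7.31 to 11.3). Regions were found in 122 of 164 exons of 18 to 20 windows (74.4%) and 238 of 493 exons of 11 to 13 (48.3%), while median input per exon was alike at 3.58 and 3.79. Just outside the class, exons of 10 windows had 14.5% enriched windows (13.2 to 15.9) and exons of 21 windows 26.6% (23.5 to 29.8). Across the whole of the neighbouring classes the share was 5.29% at 6 to 10 windows and 19.2% at 21 or more. At the input minimum, the 60 exons from genes with a mean input of 1 to 1.2 had 21.4% enriched windows, and the 68 exons left out at 0.8 to 1 had 25.5%.

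**Figure D1:**
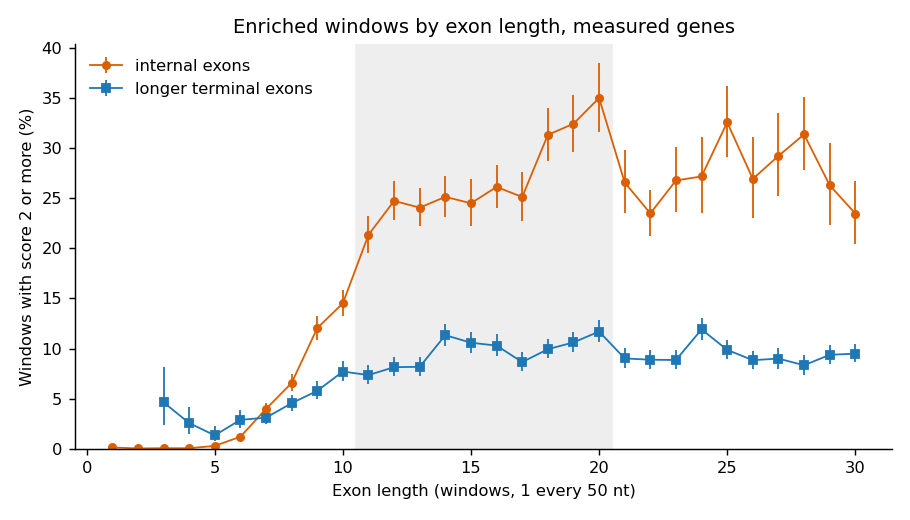
Share of windows with a score of 2 or more (vertical axis, percent) by exon length in windows (horizontal axis) for internal exons (circles) and longer terminal exons (squares) of genes that pass the input minimum, with exact 95% intervals and the class of 11 to 20 windows shaded. Internal exons climb from 0.291% at 5 windows to 21.3% at 11 and 35.0% at 20, while longer terminal exons of 11 to 20 windows stay between 7.35% and 11.7%.

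Terminal exons of the same length were enriched less often. The longer terminal exon of a transcript, where it held 11 to 20 windows, had 9.70% enriched windows (9.38 to 10.02) in 2204 genes, which is 16.3 percentage points (15.6 to 17.1) below the long internal exons. Regions were found in 660 of these terminal exons (29.9%). Median input was 3.45 there against 3.56 in the long internal exons, and median IP 5.37 against 11.2. The shorter terminal exons of this length had 5.58% enriched windows at a median input of 1.70.

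Long internal exons also stood apart from the short internal exons of their own transcripts, where gene level and gene median are shared. Even longer internal exons stood apart from the short ones in the same direction. In 111 of the genes there were internal exons of 21 or more windows, with 16.3% enriched windows. A region was found in 100 of these 132 exons (75.8%). In the 882 genes that also had short internal exons (at most 5 windows), 26.6% of windows in long internal exons were enriched against 36 of 35054 windows (0.103%, 0.0719 to 0.142) in the short ones, a difference of 26.5 percentage points (25.8 to 27.3). The median score of the long exon was above that of the short exons in 830 of 882 genes and below it in 47, with a median difference of 1.37 on the log2 scale. The median input of the short exons was lower, at 1.995 against 3.60. Short exons directly beside a long internal exon had 20 enriched windows of 4575 (0.437%, 0.267 to 0.674) and short exons elsewhere in these genes 16 of 30479 (0.0525%, 0.0300 to 0.0852). Enriched windows were thus rare in both kinds of short exon and more frequent in those beside a long one.

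The longer terminal exon of the same genes was enriched in 9.45% of its windows. Its median score was below that of the long internal exon in 714 of 917 genes and above it in 200. A region was present in both exons in 262 genes, in the long internal exon alone of these in 291, in the terminal exon alone in 163 and in neither in 201. The highest scoring neighbouring windows of the transcript lay in a long internal exon in 472 of 934 genes, in the longer terminal exon in 347 and in another exon in 115. In 243 genes every region of the transcript lay in long internal exons.

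Within the exon, enriched windows gathered away from the ends. The outermost windows were enriched in 6.80% of cases and windows at least 250 nt from both ends in 38.4%, a difference of 31.6 percentage points (29.8 to 33.4). From the nearer end inward the share went from 6.80% (5.76 to 7.96) to 13.6% at 50 nt, 20.9% at 100 nt, 28.2% at 150 nt and 34.1% at 200 nt. At 250, 300 and 350 nt it was 36.8%, 37.5% and 39.5%, values whose intervals overlap. It was 44.5% (39.6 to 49.5) at 400 nt and 46.3% (37.6 to 55.1) at 450 nt, distances that only the longer exons of the class reach. Median input was 1.61 at the outermost windows, 3.28 at 50 nt and between 3.64 and 4.18 further in. These values pool both ends. In coordinate order, the first window was enriched in 11.1% of exons at a median input of 3.37. The last window was enriched in 2.47% at a median input of 0.504. Lower coverage thus goes mainly with the last window, where the added 1 shrinks scores. The part of this in the low share at the ends was not tested. Keeping only well covered windows (input 5 or more, and not below the median of the gene), the difference between interior and outermost windows was 29.7 percentage points.

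Exons of different length differed at the same distance from an end. At 100 nt from the nearer end 0.364% of windows (0.223 to 0.562) were enriched in exons of up to 5 windows, 5.07% (4.57 to 5.61) in exons of 6 to 10, 20.9% (19.2 to 22.7) in those of 11 to 20 and 17.4% (15.3 to 19.7) in those of 21 or more. In the shortest class only exons of 5 windows reach 100 nt. Median input at this distance was 5.18, 4.97, 4.09 and 3.48, so input was highest where the share was lowest. At 200 nt the shares were 21.6% at 6 to 10 windows, 34.1% at 11 to 20 and 25.8% at 21 or more, and 12.4% in longer terminal exons of 11 to 20 windows. The first of these shares comes from exons of 9 and 10 windows alone. Inside the class, exons of 11 to 13 and of 18 to 20 windows had like shares at 100 nt, 21.7% and 21.3%. Further in, at 250 nt, they had 36.0% (32.7 to 39.4) and 41.5% (36.1 to 47.0), with intervals that overlap.

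**Figure D2:**
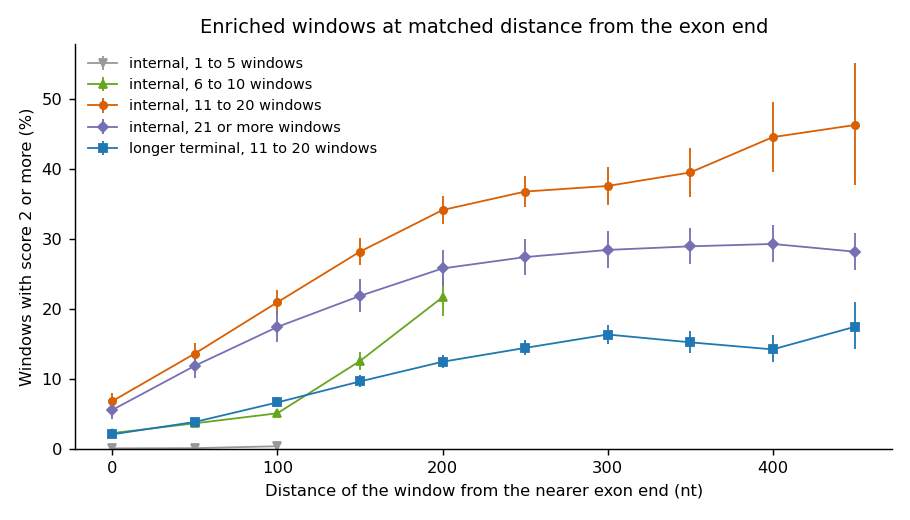
Share of enriched windows (vertical axis, percent, exact 95% intervals) by distance of the window from the nearer exon end in nt (horizontal axis) for 4 length classes of internal exon and for longer terminal exons of 11 to 20 windows. Long internal exons of 11 to 20 windows lie above every other class drawn at each distance, from 6.80% at the end to 34.1% at 200 nt. Up to 100 nt their intervals overlap those of internal exons of 21 or more windows. Some points come only from the longer exons of a class. These start at 50 nt for exons of up to 5 windows, at 150 nt for 6 to 10 windows and at 250 nt for 11 to 20 windows.

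The exons are numbered by genome coordinate and not by transcript order. Among genes with a strand in RefSeq, the longer terminal exon carried the highest number in 92.6% of 3685 plus-strand genes and the number 1 in 92.3% of 3449 minus-strand genes. This allowed 821 of the 1051 exons to be turned to transcript direction, 423 on the plus and 398 on the minus strand. The outermost window at the high-coordinate end had a median input of only 0.545 on the plus strand and 0.458 on the minus strand, against 3.57 and 3.17 at the low-coordinate end, so the ends are not equally covered and each was compared with the same end on the other strand.

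On both ends the share was higher where that end was the 3′ one. Over the 5 windows nearest the low-coordinate end, 30.6% were enriched on the minus strand, where this is the 3′ side, and 24.0% on the plus strand, a difference of 6.63 percentage points (3.91 to 9.35). Over the 5 windows nearest the high-coordinate end, 21.5% were enriched on the plus strand, where this is the 3′ side, and 11.2% on the minus strand, a difference of 10.3 (8.02 to 12.5). Median input on the 3′ and 5′ sides was 3.79 and 4.28 in the low-coordinate comparison and 3.26 and 2.79 in the high-coordinate one. With the strands weighted equally the 3′ side stood at 26.0% and the 5′ side at 17.6%, 8.45 percentage points apart (6.69 to 10.2). Within a strand the difference between the ends was -2.51 on the plus strand (-5.03 to 0.02) and 19.4 on the minus strand (16.9 to 21.8). The part of the unequal end coverage in this was not tested. The single outermost window followed the same order, with 16.6% on the 3′ side and 6.38% on the 5′ side at the low-coordinate end, and 4.73% and 0.754% at the high-coordinate end. Positions are those of short reads, which mark fragments and not the modified base.

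**Figure D3:**
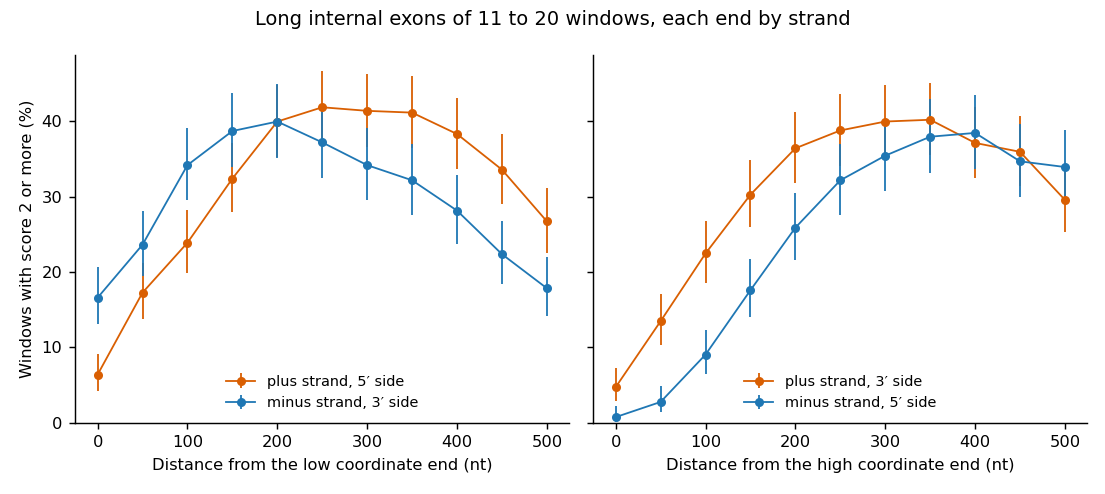
Share of enriched windows (vertical axis, percent, exact 95% intervals) in long internal exons by distance in nt from the low-coordinate end (left) and the high-coordinate end (right), for 423 plus-strand and 398 minus-strand exons. Near each end the strand for which it is the 3′ side lies higher, with 16.6% against 6.38% at the low-coordinate end and 4.73% against 0.754% at the high-coordinate end.

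The peak of exons with a region lay near the middle. On a scale from 0 at the 5′ end to 1 at the 3′ end its median position was 0.50 on the plus strand (middle 50% of exons 0.32 to 0.63, 257 exons) and 0.64 on the minus strand (0.46 to 0.77, 224 exons).

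With centring, the share of enriched windows was lower in exons next to the 3′ terminal exon. The size of this difference depended on the setting, with strand and without it. Exons next to the 5′ terminal exon had 27.8% enriched windows, those second from it 26.3% and those further in 27.3%. Exons next to the 3′ terminal exon had 18.8% (16.8 to 20.98), those second from it 26.8% and those further away 28.6%. Measured without strand, exons next to the longer terminal exon stood at 19.2% and the others at 27.2%, a difference of -7.98 percentage points (-9.76 to -6.11). Without centring that difference was -1.02 percentage points (-3.03 to 1.07), and in genes with a mean input of at least 5 it was -2.07 (-5.48 to 1.71). Exons that made up 30% or more of their transcript's windows likewise had 13.7% enriched windows with centring and 25.5% without, against 29.0% and 29.8% for exons below 10%. The gene median then includes many windows of the exon itself, and the part of this in the difference was not tested.

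Input level bore on the count as well. By median input per exon, divided at 2.11, 3.72 and 6.69, a region was found in 43.7% of exons in the lowest of the 4 classes, 62.4% and 66.4% in the middle ones and 53.2% (47.0 to 59.4) in the highest. In 6 exons the median input was 0. Exon 2 of RNF220, a RING ubiquitin ligase, had no input in any window and exon 4 of ZNF232 had no IP in its highest window, although both genes passed the minimum through other exons. Under another gene name, 46 of the exons repeat the values of a second exon in 23 pairs, and counting each pair once left 585 of 1028 exons with a region.

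Exons were ranked by an exon-level score, the highest mean of 2 neighbouring window scores. Its median was 2.38 over all 1051 exons, 3.37 over those with a region and 1.203 over the rest, and it ran from -1.15 to 6.77. Window numbers below follow the coordinates.

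FAM210A, which encodes a mitochondrial membrane protein, led with 6.77 in exon 3 of 5, on the minus strand. From window 1 to window 11 the IP coverage was 1.83, 4.74, 12.5, 33.3, 142, 380, 502, 454, 265, 65.7 and 0.880. The input stayed between 0.0925 and 7.78 with a median of 3.69. The IP formed a single hump over windows 4 to 10. The input was also higher inside the exon than at its ends, and at the top of the hump IP over input was 136 (105 to 180 by counting).

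FOXN2, a forkhead transcription factor, scored 6.42 in exon 3 of 7. Its IP was 27.8, 37.1, 205, 291, 157, 149, 115, 23.8, 19.4, 10.4, 1.45 and 0.215 over 12 windows, where the input lay between 0.0822 and 6.87. Here the hump sat toward the low-coordinate end 10 of 12 windows were enriched, and IP over input at the top was 97.3 (73.3 to 133).

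NSD1, a histone H3 lysine methyltransferase, scored 6.31 in exon 2 of 23. Over windows 1 to 6 the IP was between 4.17 and 11.98, then 80.2 at window 8, 285 at window 11 and again 84.5 at window 15, before 6.93 at window 19. The input was 10.7 in window 1 and between 0.507 and 6.20 in the others. The 5′ windows of the exon were therefore not enriched while windows 7 to 17 formed an unbroken region. With an input of 1.91 at the peak, or about 30.2 reads, IP over input was 149 with a wide counting interval of 105 to 223.

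The longest run, of 18 windows in an exon of 20, lay in the clone-named transcript RP11-432B6.3, exon 17 of 19. Its IP stood at 44.6 in window 1, 21.8 in window 5, 406 in window 10, 26.2 in window 12, 124 in window 14 and 0.592 in window 20, over an input between 0.134 and 6.94. Its 2 humps were joined by windows that were themselves enriched. Exon 13 of PTPN12, a protein tyrosine phosphatase, and exon 2 of TIPARP, a mono-ADP-ribosyltransferase, had 17 enriched windows of 20 each, with exon-level scores of 5.57 and 4.41. Exon 12 of ATXN7, a subunit of the SAGA complex, had 16 of 20 (4.73) and exon 7 of NARG2, of the little elongation complex, 15 of 20 (5.10).

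The other exons among the 12 highest scored between 5.75 and 6.29. Exon 11 of AFF1, a scaffold of the super elongation complex, reached an IP of 664 over an input of 8.11 (score 6.29). Exon 16 of SETDB1, a histone H3 lysine methyltransferase, had the highest IP of these, 874 over 11.7 (5.84), and with most input reads at the peak, 185, also the tightest ratio, 74.6 (64.5 to 86.8). Exon 2 of GOLGA5, a golgin, scored 6.18, exon 6 of SRFBP1, a serum response factor binding protein, 6.18, exon 2 of C5orf15 5.80, and exon 5 of ASB7, a SOCS box adaptor, 5.75. Exon 2 of FBXO33 and exon 3 of FBXL5, both F-box proteins of ubiquitin ligases, scored 6.12 and 5.75. Many of the intervals of IP over input among these exons overlap, so neighbours in this order are not resolved by counting.

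At the other end stood exons that were well covered and not enriched. Among exons with a median input of 5 or more the lowest was exon 3 of ASB2, a SOCS box adaptor, at -0.43. Its IP was 7.56 in window 1, 33.2 in window 4, 9.15 in window 7 and 2.01 in window 12, and its input 12.2, 35.3, 19.0 and 2.53 in the same windows. The IP thus followed the input along the exon and lay below it in all 12 windows. Exon 3 of SERPINH1, a collagen chaperone, scored -0.27, with an IP between 0.643 and 8.05 and an input between 0.336 and 7.85. The next were DIDO1 exon 5 (-0.24), ATN1, a transcriptional corepressor, exon 7 (-0.24), DPH2, of diphthamide synthesis, exon 4 (-0.07) and TCF19 exon 3 (-0.0045), where IP over input at the highest window was between 1.17 and 1.98. Without centring ASB2 stayed below 0 at -0.11, while SERPINH1 stood at 0.48, DIDO1 at 0.74, ATN1 at 0.19, DPH2 at 0.20 and TCF19 at 0.77, so the sign of these 5 rests on the gene medians.

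**Figure D4:**
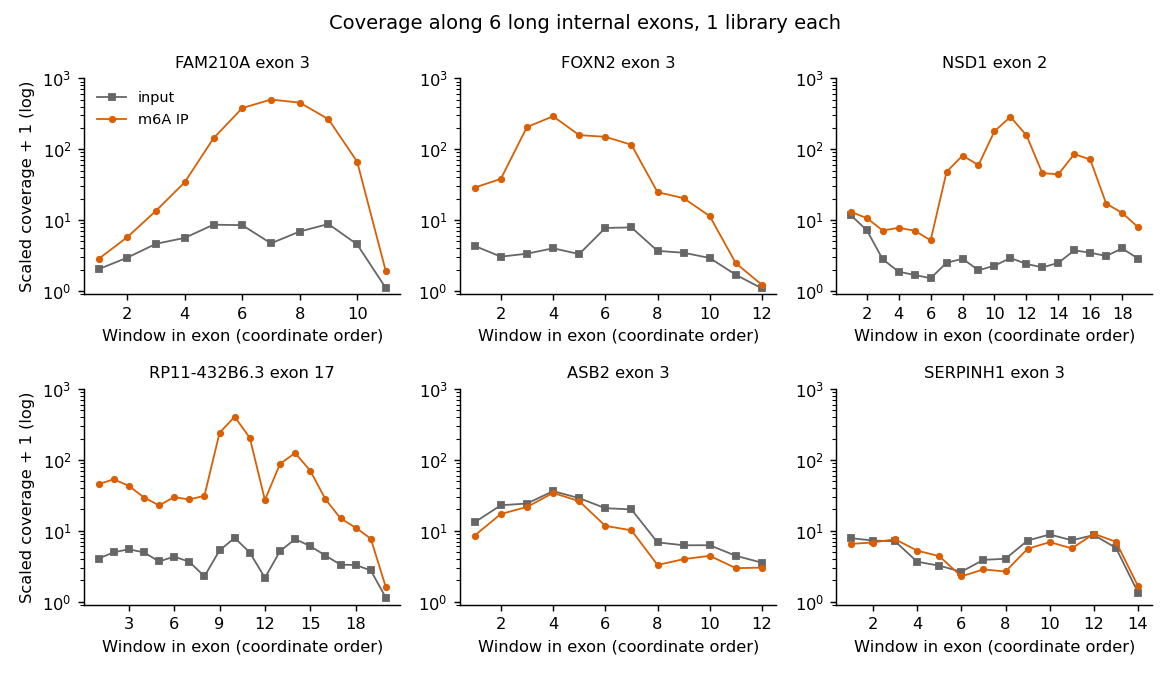
Scaled coverage plus 1 (vertical axis, log scale) in each window along 6 long internal exons (horizontal axis, windows in coordinate order) for the input (squares) and the IP (circles), 1 library each. FAM210A, FOXN2, NSD1 and RP11-432B6.3 show IP humps of 502, 291, 285 and 406 over an input of at most 10.7, while in ASB2 and SERPINH1 the lines run together.

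Long internal exons of one transcript could differ widely. Of the 95 genes with 2 such exons, 27 had a region in both, 51 in 1 and 17 in none. The higher and the lower exon of a gene had median scores of 3.20 and 1.57, and the median difference was 1.48 with a range from 0.01 to 5.30. The widest gap was in STK35, a protein kinase, where exon 3 scored 5.11 with a median IP of 95.01 over an input of 4.01, and exon 2 scored -0.20 with 1.45 over 1.52. PCNT, which encodes the centrosomal scaffold pericentrin, had 4 such exons. Exons 38, 30 and 15 scored 4.80, 4.20 and 3.40, and exon 28, with a median IP of 1.04 over an input of 1.85, -0.14. The other gene with 4, MGA, a MAX partner, had no region in any, with scores between 0.54 and 1.56. Without centring its exons 13 and 15 scored 2.38 and 2.14, exon 3 scored 1.70 and exon 8 scored 1.36. Chosen after their values were seen, DICER1, the microRNA processing nuclease, scored 3.86 and 4.70 in its exons 5 and 7, SETD2, a histone methyltransferase, 1.32 and 3.40 in exons 7 and 10, and ZC3H13, a subunit of the m6A writer complex, 3.09 and 0.89 in exons 3 and 6.

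Gene groups were set by name lists, and 56.4% of all long internal exons with a region and the overall median score of 2.38 serve as their reference. The lists are of use only for describing the members, since the exons of a list are few and share genes.

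Chromatin regulators held 56 of the exons in 43 genes, of which 30 held a region (53.6%), at a median score of 2.21. NSD1 exon 2 was the highest at 6.31, followed by exon 10 of KDM3A, a histone demethylase, at 4.95 with an IP of 149 over an input of 4.53. Exon 6 of SETD1B, a histone methyltransferase, was the lowest at -0.08, with 5.80 over 3.58 at its highest window. Chosen after its value was seen, exon 2 of the acetyltransferase EP300 scored 4.53.

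Genes of DNA damage and mitosis held 26 exons in 20 genes, 21 with a region (80.8%, 60.6 to 93.4), at a median of 3.19. PCNT exon 38 led at 4.80, exon 3 of BLM, the RecQ helicase mutated in Bloom syndrome, followed at 4.46, with an IP of 136 over an input of 5.46, and PCNT exon 28 was also the lowest at -0.14. Chosen after their values were seen, exon 9 of PALB2, the partner of BRCA2, scored 3.32 and exon 8 of MDC1, a mediator of the checkpoint, 0.84 at a median input of 0.657.

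Ubiquitin ligases and deubiquitinases held 54 exons in 43 genes, 31 with a region (57.4%), with a median of 2.50. Their highest were FBXO33 and FBXL5 named above, and the lowest was the uncovered exon of RNF220 at 0.37, which cannot be scored for want of reads. Regulators of small GTPases and vesicles, a list by name stem that also takes in the pseudogenes PLEKHM1P and SRGAP2P2, held 27 exons in 25 genes, 19 with a region (70.4%, 49.8 to 86.2), with a median of 2.95. Exon 17 of DENND5B, a guanine nucleotide exchange factor, scored 4.99, exon 2 of TBC1D1, a RAB GTPase activator, 4.93, and exon 10 of ARHGAP31, a GTPase-activating protein, 0.17.

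Protein and lipid kinases, a list by name stem that also takes in 2 genes for kinase-binding proteins and a pseudogene, held 21 exons in 20 genes. Of these 14 had a region (66.7%, 43.0 to 85.4), with a median of 2.58. STK35 held both the highest and the lowest exon, and exon 2 of CDK13, a transcription elongation kinase, came second at 4.94 with an IP of 136 over an input of 1.93. RNA-binding and RNA-processing proteins held 38 exons in 31 genes, 21 with a region (55.3%), with a median of 2.48. Exon 18 of ZCCHC11, a terminal uridylyltransferase, scored 5.17, exon 4 of RBM48, of the minor spliceosome, 4.79, and exon 7 of DDX24, an RNA helicase, 0.46 at an IP of 57.0 over an input of 14.7.

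Zinc finger and BTB transcription factors held 39 exons in 38 genes, 22 with a region (56.4%), with a median of 2.15. KLF6 exon 3 led at 5.38 with an IP of 366 over an input of 8.97, ZSCAN29 exon 3 scored 4.07, and ZNF232 exon 4 was the lowest at -1.15 for want of reads. Reads from repeated finger domains can be shared between family members. Of lymphoid and NF-kB regulators 4 of 64 measured genes held such an exon, beside 934 of all 10767, and 2 had a region. Exon 7 of TNFAIP3, the ubiquitin-editing inhibitor of NF-kB also called A20, scored 4.36 with an IP of 802 over an input of 26.3, and exon 3 of NFATC2 2.36 with 39.9 over 6.10. Exon 10 of the receptor NOTCH1 scored 0.36 and exon 2 of STAT5A, chosen after its value was seen, 0.73. Without centring a region was found in 653 of all 1051 long internal exons, which is the reference for the counts that follow. By list it was found in 39 exons of chromatin regulators, 21 of DNA damage and mitosis, 33 of ubiquitin ligases and 20 of GTPase regulators. For the others the counts were 14 of kinases, 25 of RNA-binding proteins, 27 of zinc finger factors and 2 of lymphoid regulators.

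**Figure D5:**
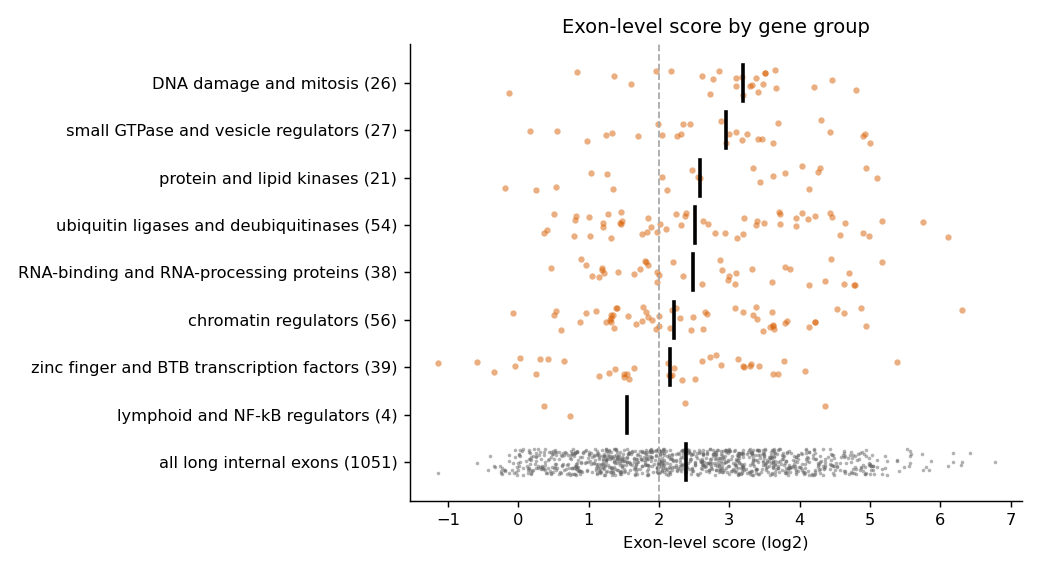
Exon-level score (horizontal axis, log2) of each long internal exon (points, jittered vertically) for all 1051 exons and for the 8 gene groups, with the number of exons in brackets, the median as a black bar and the score of 2 as a dashed line. Medians run from 1.55 for 4 exons of lymphoid regulators to 3.19 for 26 exons of DNA damage and mitosis, beside 2.38 for all exons, and every group except the lymphoid one spans scores from below 0.5 to above 4.5.

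In 12 exons there was no region although the median log2 ratio of IP to input, not centred, was 2 or more. Among them, all chosen by this rule after values were seen, exon 3 of NCK1, a signalling adaptor, had a median IP of 25.9 over an input of 2.86, exon 2 of the RNA-binding protein gene RBM4B 22.4 over 2.01, and exon 4 of LATS1, a kinase of the Hippo pathway, 7.79 over 0.598. Exon 12 of KIAA1429, which encodes the m6A writer subunit VIRMA, had 16.97 over 3.38, while its gene medians were only 4.72 and 2.87. Exon 2 of 3 of MYC, a transcription factor, chosen after its values were seen, had a median IP of 77.8 over an input of 42.3 and scored 0.30, and 1.60 without centring.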

How the data were processed

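One input and one m6A IP library of GM12878 RNA were compared, in 1 table of 3335372 windows. Reads were aligned with TopHat 1.1.3 to hg19, per the submitters' processing notes, while for the counting step and the gene models the tool and version were not given in the sources used here. Per the file headers, the authors deposited for each window the scaled coverage of input and IP, the gene medians of both, and a log2 score. The deposited coverage is in whole steps, and an isolated read fills 37 steps, which puts a scaled coverage of 1 at 5.78 input reads or 3.68 IP reads over each base. The deposited log2 score was recomputed from the coverage with 1 added and matched within 1e-09 in all windows. Windows of 101 nt lie 50 nt apart and carry no coordinates, so no sequence is printed.

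For each gene name the listing with most windows was kept. Exons of 11 to 20 windows, neither first nor last, in genes with a mean input of at least 1 were members. The rule used input level and exon length, not IP. The members and lists were chosen with earlier results of these data known. Differences of shares have Newcombe intervals and ratios of IP to input conditional binomial ones, except the equally weighted 3′ and 5′ sides, which have a normal interval. PCR copies were not marked, so all intervals cover counting error only.

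Named are the 12 highest exon-level scores, the 5 exons with most enriched windows, the 6 lowest scores at a median input of 5 or more, and the 2 highest and 1 lowest exon of each of 8 lists. Others are said to be chosen after their values were seen. Strand came from RefSeq (GRCh38.p14) by gene symbol. The region-calling step was run on simulated counts drawn separately for each window. Real windows overlap and share reads, so that run does not measure false calls here, and no result rests on it. Alternatives changed the threshold, the added constant, centring, coverage minimums, run length and repeated exons. Tables were handled with pandas 2.3.3 and numpy 2.4.6, intervals computed with scipy 1.17.1 and plots drawn with matplotlib 3.10.9, under Python 3.11.15.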

Additional observations from a re-analysis of the deposited data

How the results depend on the processing

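No paired analysis was possible because each group had 1 library, and no library could be left out. In the order share of windows enriched, minus short exons of the same genes, interior minus outermost windows, next to the longer terminal exon minus elsewhere, and minus longer terminal exons, a threshold of 1 gave 49.3%, 48.8, 41.4, -11.1 and 24.6 percentage points. In the same order a threshold of 3 gave 11.5%, 11.7, 15.7, -3.37 and 7.99, with 367 exons with a region, 3.85 between exons of 18 to 20 and 11 to 13 windows, and 4.36 between the 3′ and 5′ sides. With 0.1 added in place of 1 the share was 31.8%, and the differences from short exons, next to the terminal exon and from terminal exons 32.1, -10.1 and 19.2. With 5 added the order gave 15.8%, 16.1, 21.8, -4.04 and 9.95, with 6.53 by length and 5.41 by side. Without centring it gave 29.1%, 29.1, 35.2, -1.02 and 17.4, with 11.5 by length. A gene input minimum of 5 gave 21.3%, 21.7, 23.0, -2.07 (-5.48 to 1.71) and 12.5. Fewer genes entered, and 136 of 279 exons held a region. No share over all exons is given for the counts of exons with a region under these settings. Windows with input of 5 or more, and not below the median of the gene, gave 30.2% and 30.8 from short exons. They gave 29.7 for the interior, -8.44 next to the longer terminal exon and 10.2 by side. The cause of these shifts was not tested. None of these comparisons changed sign. Runs of 4 windows left 440 exons with a region. The longest exon of each gene and identical exons counted once moved the comparisons by less than their counting intervals. Of 66 named exons, 50 kept their score within its counting interval with 0.1 added, 27 with 5 added and 38 without centring. The sign changed for 8 of them without centring and for 2 with 5 added (TCF19 exon 3 and SETD1B exon 6), all with scores below 0 as reported, and ZNF232 exon 4, which has no reads at its highest window, went to 0 without centring. Of the 593 exons with a region, 591, 453 and 565 kept one under these 3 settings. The side difference under every setting, and the count of identical exons, were added after seeing the data. Depth limits exons with few input reads, where ratios have wide intervals.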
